A study of Homo sapiens with 16 samples.

Results

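The collagen genes were followed in human cardiomyocytes that had been kept in different culture media. They were taken as every gene of the deposited table whose symbol is COL, a number, A and a number, which gave 44 of the 43388 genes listed. The cells were hPSC-CMs, cardiomyocytes differentiated with the GiWi protocol from WTC11, an established human induced pluripotent stem cell line with the genotype WT. RNA was sequenced from 16 libraries in 4 groups of 4 wells. The Day 16 RPMI/B27 group was collected at the start, on day 16 of differentiation. The other groups were collected on day 30 after further culture in standard RPMI/B27, in RPMI_glcM/B27, which is RPMI/B27 with 5 mM glucose, or in HPLM/B27, a medium modelled on human plasma. The stem cells of all groups had been plated before differentiation on Matrigel, a coating that itself holds basement membrane proteins. For the later reseeding of the thawed cells the study's methods name no coating. The medium was RPMI with B27 minus insulin up to the progenitor stage, at which cells were frozen and thawed, and RPMI/B27 afterwards. B27 supplement, without or with insulin, was present from the start of differentiation. The wells came from a single differentiation of a single line, so p-values measure the spread between wells and not between differentiations. The text deposited with the series gives n = 3 wells for each medium and the labels of the samples 4. None of the 16 libraries was left out. Where values follow for the 3 media of Day 30, they stand in the order RPMI/B27, RPMI_glcM/B27, HPLM/B27.

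Collagens are secreted or membrane proteins in which chains wind around each other into a triple helix. Fibril-forming collagens build the cables that carry tension, network collagens such as type IV form the sheet of the basement membrane that surrounds each cardiomyocyte, and fibril-associated collagens decorate the cables. In the heart the interstitial fibrils are made mainly by fibroblasts, while the basement membrane is laid down by several cell types, and the chains need prolyl and lysyl hydroxylation, folding, cleavage and cross-linking before they become matrix.

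Values are given as TPM, a share of each library corrected for gene length. The libraries held 7744768 to 16183655 reads on genes, and COL4A2 rested on 3534 to 9044 of them in a library. RNR1, the small ribosomal RNA of mitochondria, took 49.5 to 29276 TPM and was highest in replicates 3 and 4 of Day 30 RPMI/B27, at 14387 and 29276 TPM, and the TPM of a library sum to a fixed total. Against Day 16, the middle gene of all 16122 genes tested shifted by -0.28, -0.22 and -0.29 in the 3 media on the log2 scale, where all differences here are of log2(TPM + 1) and understate the change of low genes. Each comparison is therefore given also after rescaling every library by its median-of-ratios factor, which ranged from 0.727 to 1.34 and leaves the middle gene at 0.01 in each of these comparisons. Cardiomyocyte markers (TNNT2, ACTN2, MYH6, MYH7, MYL7 and NPPA) were high in every library, with TNNT2 at 2350 TPM or more. Bulk RNA cannot tell fewer cells of a type from less RNA in each cell.

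Of the 44 collagen genes, 43 were above 0 in at least 1 library and 26 averaged 1 TPM or more, the limit for testing. COL4A2 and COL18A1 had the highest mean levels over the 16 libraries, 186 and 106 TPM, and ranked 263 and 543 among all genes. COL2A1 (72.8 TPM), COL4A1 (72.0), COL4A5 (66.4), COL3A1 (57.0) and COL4A6 (45.4) followed. In reads COL4A2 and COL4A1 were closer, with means of 5269 and 4922, because the TPM rest on a longer gene length for COL4A1. This is the order of the means over all 16 libraries, and at Day 16 COL2A1 (194 TPM) stood above COL18A1 (129 TPM) and below COL4A2 (215 TPM). The lowest gene tested was COL14A1 at 1.20 TPM. The summed level of all collagen genes was 963 to 1430 TPM in the Day 16 libraries. At Day 30 it was 682 to 994 TPM in RPMI/B27, 590 to 778 TPM in RPMI_glcM/B27 and 649 to 697 TPM in HPLM/B27. After rescaling the sum was 910 to 1067 at Day 16 and 833 to 943 in RPMI/B27, which overlapped. In RPMI_glcM/B27 and HPLM/B27 it was 670 to 749 and 653 to 737 after rescaling, below Day 16 without overlap. Fibril-forming collagens held 39.9 to 44.3% of the collagen TPM of each library at Day 16 and 23.8 to 30.0% in RPMI/B27, 19.9 to 21.0% in RPMI_glcM/B27 and 21.7 to 27.9% in HPLM/B27 at Day 30. The share of the basement membrane chains was 35.6 to 38.6% at Day 16 and 43.3 to 51.03% over the Day 30 libraries. Neither share overlapped between the days. These shares do not depend on the rescaling. The mean summed level of the basement membrane chains was 431 TPM at Day 16. At Day 30 it was 384.1 TPM in RPMI/B27, 349.5 TPM in RPMI_glcM/B27 and 317.7 TPM in HPLM/B27. The higher share of these chains at Day 30 thus came without a higher mean summed TPM.

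**Figure D1:**
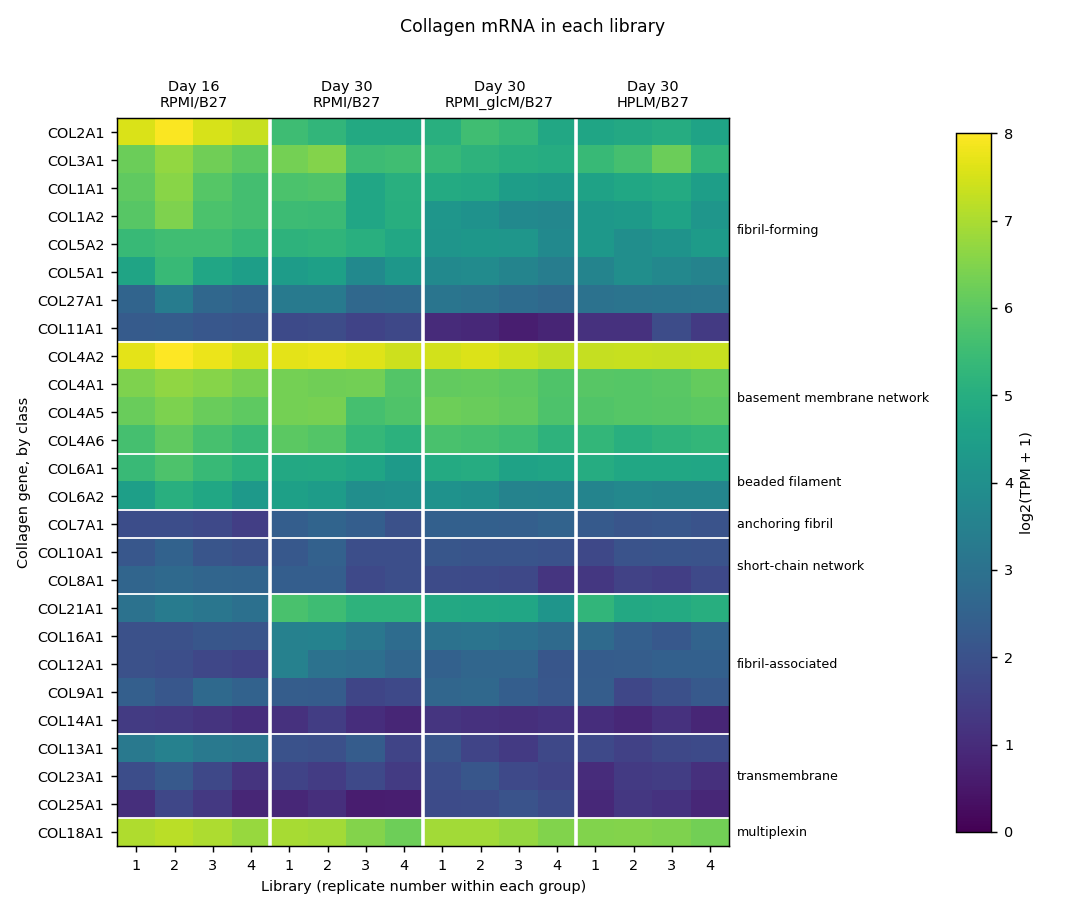
Level of the 26 collagen genes tested in each of the 16 libraries, as log2(TPM + 1), with rows grouped by collagen class and columns by group. COL4A2 and COL18A1 are bright in every column, COL2A1 is brightest in the Day 16 columns (160.3 to 247 TPM), and COL21A1 brightens from 6.75 to 9.17 TPM at Day 16 to 16.9 to 51.9 TPM at Day 30.

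The comparison with Day 16 asked which collagen genes changed over the further culture in each medium. COL2A1, COL13A1 and COL1A2 fell and COL21A1 and COL12A1 rose in all 3 media, on both scales. In RPMI/B27, 4 of the 26 tested rose and 6 fell, beside 2.08% and 17.8% of all genes tested. In RPMI_glcM/B27, 5 rose and 12 fell, beside 3.34% and 17.8%. In HPLM/B27, 2 rose and 13 fell, beside 3% and 22.4%. After rescaling, 5 rose and 4 fell in RPMI/B27, where 8.76% of all genes rose and 8.76% fell. In RPMI_glcM/B27, 6 rose and 11 fell after rescaling, beside 14% and 13.6% of all genes. In HPLM/B27 these counts were 5 and 10, beside 13.4% and 11.9%. The median log2 difference of the 26 genes after rescaling was -0.00, -0.01 and -0.20 in the 3 media, against 0.01 for all genes in each. The 3 comparisons share the Day 16 libraries. All adjusted p-values are from limma, over all genes tested, and a gene was called at an adjusted p under 0.05. Of the 26 genes, 12, 17 and 19 did not overlap with Day 16 on TPM in the 3 media, beside 17.9, 30.2 and 35.9% of all genes tested.

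**Figure D2:**
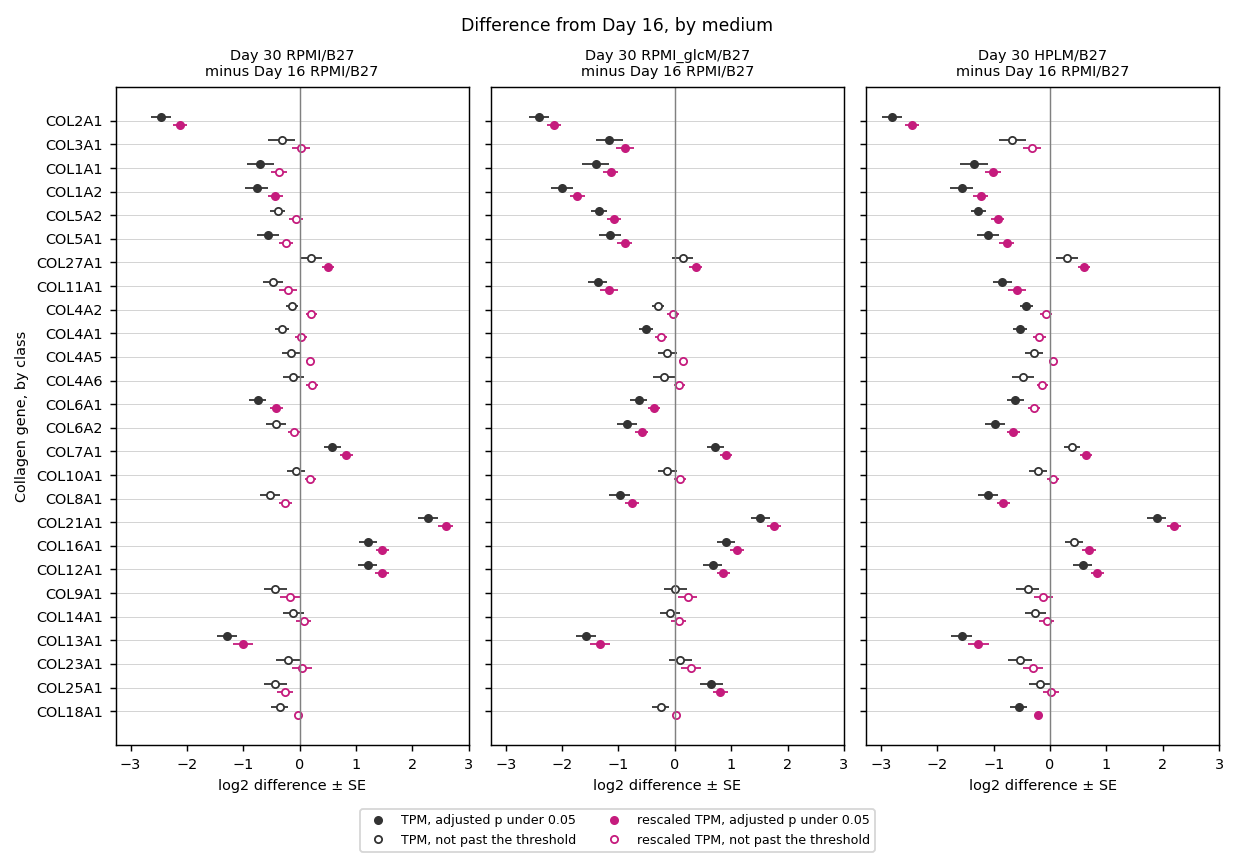
Difference of each collagen gene from Day 16 in each Day 30 medium on the log2 scale, with its standard error, on TPM (dark) and after rescaling (magenta). Filled points passed an adjusted p of 0.05. COL2A1 lies farthest left (-2.46, -2.41 and -2.80 on TPM) and COL21A1 farthest right (2.28, 1.52 and 1.89) in all 3 panels.

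COL2A1, the chain of cartilage type II collagen, lies on chromosome 12 from 47972967 to 48006212 (GRCh38.p14, as are all positions given here from RefSeq). Its levels at Day 16 were 186, 247, 182 and 160.3 TPM. At Day 30 they were 44.8, 37.4, 28.1 and 28.1 TPM in RPMI/B27, 32.1, 46.0, 38.9 and 26.7 in RPMI_glcM/B27 and 24.9, 27.8, 30.1 and 24.1 in HPLM/B27. Every Day 30 library was below every Day 16 library, and the 3 media overlapped. The log2 difference from Day 16 was -2.46 ± 0.18 (SE, adjusted p = 6.73e-07) in RPMI/B27, -2.41 ± 0.18 (adjusted p = 4.57e-07) in RPMI_glcM/B27 and -2.80 ± 0.18 (adjusted p = 7.25e-08) in HPLM/B27. The group mean fell from 194 ± 37.4 to 34.6 ± 8.10, 35.9 ± 8.40 and 26.7 ± 2.73 TPM (SD, n = 4). HAPLN1, which links aggrecan to hyaluronan, was the highest of the 8 chondrocyte markers, at 26.4 to 29.2 TPM at Day 16 and 3.38 to 10.6 TPM at Day 30. The summed level of the 8 was 31.6 to 35.6 TPM at Day 16 and 5.18 to 14.7 TPM at Day 30, and 2 of the 3 tested fell in each medium on both scales. Of all genes tested, 17.8, 17.8 and 22.4% fell on TPM in the 3 media and 8.76, 13.6 and 11.9% after rescaling. The defining cartilage genes ACAN, COMP and EPYC did not exceed 0.223 TPM in any library, and EPYC was listed at 0 in all 16. CNMD, MATN3 and SNORC, also of cartilage, ranged from 0.214 to 2.72, 0.433 to 3.28 and 0.456 to 1.54 TPM.

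The chains of type I collagen, COL1A1 (chromosome 17 from 50184101 to 50201631) and COL1A2 (chromosome 7 from 94394895 to 94431227), form the main interstitial fibril. COL1A1 was at 64.8, 94.3, 59.0 and 48.2 TPM at Day 16, 52.3, 55.2, 25.7 and 32.4 in RPMI/B27, 28.6, 27.3, 20.9 and 19.6 in RPMI_glcM/B27 and 23.6, 26.1, 28.6 and 21.3 in HPLM/B27. COL1A2 was at 60.1, 87.7, 52.7 and 48.4 TPM at Day 16, 44.3, 42.7, 25.9 and 31.7 in RPMI/B27, 17.5, 15.9, 12.8 and 12.0 in RPMI_glcM/B27 and 18.2, 19.8, 24.1 and 17.4 in HPLM/B27. For both genes the RPMI_glcM/B27 and HPLM/B27 libraries all lay below the Day 16 libraries, and in RPMI/B27 replicates 1 and 2 lay above replicates 3 and 4, the libraries with the highest RNR1. COL1A2 fell in all 3 media, with log2 differences of -0.76 ± 0.20 (adjusted p = 0.0155), -2.0 ± 0.20 (adjusted p = 6.15e-06) and -1.57 ± 0.20 (adjusted p = 5.43e-05) in the 3 media. COL1A1 fell in RPMI_glcM/B27 and HPLM/B27, with log2 differences of -1.40 ± 0.24 (adjusted p = 0.000546) and -1.35 ± 0.24 (adjusted p = 0.000757). In RPMI/B27 its difference of -0.70 ± 0.24 passed on TPM (adjusted p = 0.0466), with overlapping groups, and not after rescaling (-0.36 ± 0.14, adjusted p = 0.0853, with 0.0103 to 0.481 over the 10 alternatives). That call was lost when any of replicates 1 to 3 of Day 16 or replicates 3 and 4 of Day 30 RPMI/B27 was left out, and the COL1A2 call in RPMI/B27 without replicate 2 of Day 16 or replicate 3 of Day 30 RPMI/B27.

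COL3A1 (chromosome 2 from 188974373 to 189012746) and COL5A2 (chromosome 2 from 189031898 to 189441111) are neighbours, and type III and type V collagen are built into the same fibrils as type I. COL3A1 was at 73.3, 104, 76.1 and 62.0 TPM at Day 16, 79.3, 90.8, 44.2 and 45.8 in RPMI/B27, 40.3, 35.1, 31.7 and 29.9 in RPMI_glcM/B27 and 40.7, 49.4, 72.9 and 37.0 in HPLM/B27. It fell in RPMI_glcM/B27, with a log2 difference of -1.16 ± 0.24 (adjusted p = 0.00313), where no library reached the Day 16 range, and its differences in RPMI/B27 (-0.32 ± 0.24, adjusted p = 0.351) and HPLM/B27 (-0.67 ± 0.24, adjusted p = 0.0536) did not pass. The difference in HPLM/B27 passed in 4 of 10 alternatives, and that between HPLM/B27 and RPMI_glcM/B27 did not pass (adjusted p = 0.797). COL5A2 was at 41.2, 45.5, 46.1 and 38.9 TPM at Day 16, 35.1, 36.8, 32.0 and 26.6 in RPMI/B27, 17.0, 17.8, 17.5 and 13.0 in RPMI_glcM/B27 and 18.4, 14.5, 16.2 and 20.03 in HPLM/B27. On TPM the RPMI/B27 libraries lay below Day 16 and above both other media without overlap, whereas after rescaling they overlapped with Day 16. COL5A2 fell in RPMI_glcM/B27 (-1.35 ± 0.14, adjusted p = 6.85e-06) and HPLM/B27 (-1.27 ± 0.14, adjusted p = 1.21e-05), while its difference in RPMI/B27 was -0.39 ± 0.14 (adjusted p = 0.0528) on TPM and -0.06 (adjusted p = 0.796) after rescaling.

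COL5A1 (chromosome 9 from 134641803 to 134844843), the other type V chain, was at 24.6, 40.9, 25.7 and 21.5 TPM at Day 16, 20.6, 22.6, 13.1 and 17.8 in RPMI/B27, 13.0, 13.5, 11.2 and 9.59 in RPMI_glcM/B27 and 11.2, 14.5, 12.2 and 11.1 in HPLM/B27. It fell in RPMI_glcM/B27 and HPLM/B27, with log2 differences of -1.15 ± 0.19 (adjusted p = 0.000549) and -1.10 ± 0.19 (adjusted p = 0.000776), without overlap. Its difference of -0.56 ± 0.19 in RPMI/B27 (adjusted p = 0.0497) was not called after rescaling (adjusted p = 0.235, with 0.0101 to 0.453 over the alternatives) and was lost without any of replicates 1 to 3 of Day 16 or replicates 3 and 4 of Day 30 RPMI/B27. COL11A1 (chromosome 1 from 102876473 to 103108522), a minor chain that joins type II and type V fibrils, was at 3.87, 4.07, 3.47 and 3.33 TPM at Day 16, 2.504, 2.62, 2.05 and 2.36 in RPMI/B27, 0.983, 0.908, 0.578 and 0.77 in RPMI_glcM/B27 and 1.21, 1.22, 2.62 and 1.56 in HPLM/B27. It fell in RPMI_glcM/B27 (-1.37 ± 0.17, adjusted p = 4.92e-05) and HPLM/B27 (-0.85 ± 0.17, adjusted p = 0.00243), and its difference in RPMI/B27 was -0.47 ± 0.17 (adjusted p = 0.0646). COL27A1 stood apart from the other fibril-forming chains. It ranged from 4.78 to 9.22 TPM over all libraries, had no call on TPM, and was higher in all 3 media after rescaling (0.50, 0.37 and 0.60). Of the 8 fibril-forming genes tested, 4, 7 and 6 fell on TPM in the 3 media, and 2, 7 and 6 fell after rescaling. Beside these counts, 17.8, 17.8 and 22.4% of all genes tested fell on TPM and 8.76, 13.6 and 11.9% after rescaling.

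**Figure D3:**
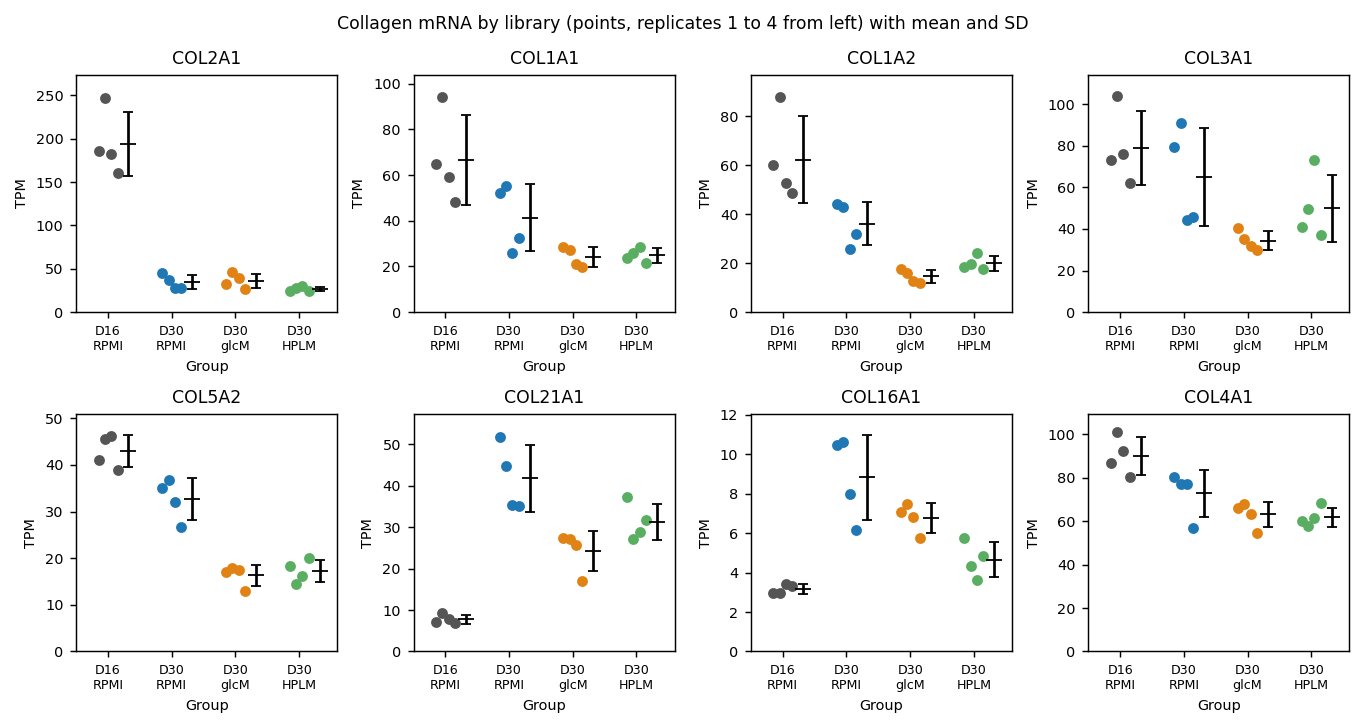
TPM of 8 collagen genes in each library (points, replicates 1 to 4 from left to right within a group) with the group mean and SD beside them, on linear axes that start at 0. COL2A1 drops from 160.3 to 247 TPM to below 50 TPM in all 12 Day 30 libraries, COL1A2 and COL5A2 are lowest in RPMI_glcM/B27 and HPLM/B27, and COL21A1 and COL16A1 are highest in RPMI/B27.

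The type IV chains COL4A1, COL4A2, COL4A5 and COL4A6 stayed at 31.9 TPM or more in every library, and none of their calls against Day 16 held on both scales. COL4A1 and COL4A2 make the type IV protomer found in almost every basement membrane, and COL4A5 and COL4A6 are chains of a network with a narrower distribution. The genes lie in pairs that start head to head. COL4A1 (chromosome 13 from 110148963 to 110307157) and COL4A2 (chromosome 13 from 110307284 to 110513209) leave 126 bases between their starts, while the farthest start of COL4A6 and that of COL4A5 on chromosome X are 379 bases apart. Bases between the starts of each pair are shown because the partners are read away from them in opposite directions. The first entry is the whole stretch between the starts of COL4A1 and COL4A2, chr13:110307158-110307283, and the next one 250 of the 379 bases of the other pair, those nearest to COL4A5, chrX:108439588-108439837, both on the + strand from RefSeq. Capitals mark the CCAAT box, the TATA box as TATAAA, the GC box as GGGCGG and the pyrimidine run CCCTCCCC, read on either strand, and none of these motifs holds another.
COL4A1 and COL4A2: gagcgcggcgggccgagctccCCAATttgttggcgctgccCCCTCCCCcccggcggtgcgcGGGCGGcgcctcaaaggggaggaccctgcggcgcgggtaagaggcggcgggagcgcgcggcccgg
COL4A5: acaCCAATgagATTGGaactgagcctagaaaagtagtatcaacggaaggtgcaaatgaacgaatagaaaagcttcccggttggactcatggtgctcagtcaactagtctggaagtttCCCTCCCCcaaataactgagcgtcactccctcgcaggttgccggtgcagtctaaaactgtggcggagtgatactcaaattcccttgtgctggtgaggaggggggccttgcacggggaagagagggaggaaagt
Both stretches hold CCAAT and CCCTCCCC. Of 35116 windows of 250 bases before a RefSeq start, 32.0% hold CCAAT, 10.7% TATAAA, 42.6% GGGCGG and 12.7% CCCTCCCC. A match is a string of letters and not evidence of a bound factor.

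COL4A2 was at 205, 256, 216 and 183 TPM at Day 16, 206, 212, 195 and 169 in RPMI/B27, 176, 191, 172 and 154 in RPMI_glcM/B27 and 156, 162, 159 and 161 in HPLM/B27. COL4A1 was at 86.8, 101, 92.3 and 80.6 TPM at Day 16, 80.5, 77.05, 77.2 and 56.9 in RPMI/B27, 66.3, 68.2, 63.3 and 54.7 in RPMI_glcM/B27 and 59.9, 58.0, 61.5 and 68.2 in HPLM/B27. The HPLM/B27 libraries of both partners lay below Day 16 on TPM without overlap. In RPMI/B27 neither passed, with log2 differences of -0.13 ± 0.11 for COL4A2 (adjusted p = 0.394) and -0.31 ± 0.12 for COL4A1 (adjusted p = 0.0791) on TPM and of 0.21 and 0.03 after rescaling. On TPM, COL4A1 was called lower in RPMI_glcM/B27 (-0.51 ± 0.12, adjusted p = 0.00721) and HPLM/B27 (-0.53 ± 0.12, adjusted p = 0.00496), and COL4A2 in HPLM/B27 (-0.42 ± 0.11, adjusted p = 0.0119). None of these 3 calls held after rescaling, where the differences were -0.24, -0.19 and -0.07 (adjusted p = 0.112, 0.225 and 0.647). Over the alternatives the adjusted p ran from 0.00252 to 0.112, 0.00114 to 0.225 and 0.00233 to 0.647. COL4A5 (chromosome X from 108439838 to 108697545) was at 71.6, 84.4, 70.7 and 64.5 TPM at Day 16, 80.3, 82.0, 49.1 and 54.6 in RPMI/B27, 74.3, 72.0, 67.3 and 53.7 in RPMI_glcM/B27 and 55.8, 59.2, 59.6 and 63.2 in HPLM/B27. Neither it nor COL4A6, which ranged from 31.9 to 65.2 TPM over all libraries, passed the test against Day 16 on either scale. COL4A3 and COL4A4, which also start head to head, stayed at or below 1.12 and 0.711 TPM.

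COL18A1 (chromosome 21 from 45405165 to 45513720), whose protein sits at the basement membrane and carries endostatin at its end, was at 131, 145, 130 and 109 TPM at Day 16, 124, 119, 90.7 and 74.6 in RPMI/B27, 119, 119, 106 and 88.8 in RPMI_glcM/B27 and 89.4, 91.4, 87.7 and 78.1 in HPLM/B27. The HPLM/B27 libraries all lay below Day 16 and the other media overlapped with it. COL18A1 was lower in HPLM/B27, with log2 differences of -0.56 ± 0.15 on TPM (adjusted p = 0.0139) and -0.21 ± 0.06 after rescaling (adjusted p = 0.0187, with 0.000812 to 0.0235 over the alternatives). The antisense genes COL18A1-AS1 and COL18A1-AS2 were at 1.64 to 3.74 and 3.46 to 14.4 TPM, and whether the counting used the strand was not stated, so reads of COL18A1 and of these genes may not be fully separated. The same holds for COL1A2, COL4A2 and COL5A1, whose antisense genes were listed with means of 1.01 to 3.83 TPM.

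Type VI collagen forms beaded filaments beside the basement membrane from the chains COL6A1, COL6A2 and COL6A3. COL6A1 (chromosome 21 from 45981770 to 46005048) was at 42.1, 53.9, 41.4 and 33.4 TPM at Day 16, 27.3, 28.1, 24.9 and 19.7 in RPMI/B27, 29.0, 30.2, 23.6 and 24.4 in RPMI_glcM/B27 and 30.1, 26.2, 26.4 and 25.6 in HPLM/B27. COL6A2 (chromosome 21 from 46098112 to 46132848), its neighbour, was at 21.8, 32.3, 26.3 and 18.6 TPM at Day 16, 22.2, 20.4, 14.6 and 15.3 in RPMI/B27, 15.9, 14.9, 10.96 and 10.8 in RPMI_glcM/B27 and 11.2, 12.4, 11.7 and 11.8 in HPLM/B27. On TPM COL6A1 was below its Day 16 range in every Day 30 library, to a like degree in all media, whereas COL6A2 was lowest in RPMI_glcM/B27 and HPLM/B27 and overlapped with Day 16 in RPMI/B27. After rescaling COL6A1 overlapped with Day 16 in RPMI/B27 and HPLM/B27. COL6A1 fell, with log2 differences of -0.74 ± 0.15, -0.64 ± 0.15 and -0.62 ± 0.15 in the 3 media (adjusted p = 0.00306, 0.00545 and 0.00624), the last of which was not called after rescaling (-0.28, adjusted p = 0.0662, with 0.000932 to 0.0662 over the alternatives). COL6A2 fell, with log2 differences of -0.85 ± 0.18 in RPMI_glcM/B27 (adjusted p = 0.00296) and -0.98 ± 0.18 in HPLM/B27 (adjusted p = 0.00102). COL6A3 had a mean below 1 TPM and so was outside the main test. It was at 1.57, 1.94, 1.55 and 1.24 TPM at Day 16, 0.984, 0.976, 0.552 and 0.694 in RPMI/B27, 0.221, 0.251, 0.249 and 0.241 in RPMI_glcM/B27 and 0.388, 0.566, 0.889 and 0.367 in HPLM/B27, from 9 to 88 reads per library. All Day 30 libraries were below Day 16 and all RPMI_glcM/B27 libraries below the other Day 30 libraries. When all genes above 0 were tested, COL6A3 was lower than Day 16 in all 3 media, with differences of -0.52, -1.05 and -0.73 (adjusted p = 0.0252, 0.000164 and 0.00228). In limma-voom on the reads its differences from Day 16 were -0.86, -2.51 and -1.40 (adjusted p = 0.00466, 2.44e-06 and 9.38e-05), and it was lower in RPMI_glcM/B27 than in RPMI/B27 (-1.65, adjusted p = 0.00224).

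COL8A1 (chromosome 3 from 99638594 to 99799217), a short-chain network collagen of vessel walls and heart valves, was at 5.14, 5.68, 5.07 and 4.96 TPM at Day 16, 4.25, 4.30, 2.37 and 2.76 in RPMI/B27, 2.56, 2.505, 2.31 and 1.37 in RPMI_glcM/B27 and 1.47, 1.99, 1.81 and 2.37 in HPLM/B27. Every Day 30 library was below Day 16. The difference passed in RPMI_glcM/B27 (-0.98 ± 0.18, adjusted p = 0.00128) and HPLM/B27 (-1.10 ± 0.18, adjusted p = 0.000525) but not in RPMI/B27 (-0.52 ± 0.18, adjusted p = 0.0555). COL10A1, the short-chain collagen of hypertrophic cartilage, ranged from 2.36 to 4.78 TPM over all libraries and passed in no comparison. COL7A1 (chromosome 3 from 48564073 to 48595329), the anchoring fibril collagen best known from skin, was at 2.73, 2.70, 2.40 and 1.81 TPM at Day 16, 4.31, 4.99, 4.30 and 2.95 in RPMI/B27, 4.51, 4.54, 4.42 and 4.83 in RPMI_glcM/B27 and 3.77, 3.36, 3.51 and 3.13 in HPLM/B27. Every Day 30 library was above every Day 16 library. It rose in RPMI/B27 (0.58 ± 0.15, adjusted p = 0.0125) and RPMI_glcM/B27 (0.72 ± 0.15, adjusted p = 0.00266), while its difference of 0.39 ± 0.15 in HPLM/B27 did not pass on TPM (adjusted p = 0.0618). That difference passed in 6 of 9 alternatives, with adjusted p = 0.000174 to 0.0912 over them, and rescaling was among the 6 (0.64 ± 0.11, adjusted p = 0.00066).

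Of the 5 fibril-associated collagens tested, 3, 3 and 2 rose in the 3 media on TPM and 0 fell, and 3 rose in each medium after rescaling. Beside these counts, 2.08, 3.34 and 3% of all genes tested rose on TPM and 17.8, 17.8 and 22.4% fell. After rescaling 8.76, 14 and 13.4% of all genes rose. COL21A1, COL12A1 and COL16A1 have interrupted triple helices and attach to the surface of fibrils rather than forming them. The 250 bases before their outermost RefSeq starts are shown with those of COL13A1, the transmembrane collagen that fell, since COL21A1, COL12A1 and COL13A1 are the members with a promoter entry that passed in all 3 media on both scales. COL21A1 has 3 RefSeq starts, and the data do not tell which was used. The stretches are chr6:56394129-56394378, chr6:75206054-75206303 and chr1:31704018-31704267 on the - strand and chr10:69801656-69801905 on the + strand, with the same motifs in capitals.
COL21A1: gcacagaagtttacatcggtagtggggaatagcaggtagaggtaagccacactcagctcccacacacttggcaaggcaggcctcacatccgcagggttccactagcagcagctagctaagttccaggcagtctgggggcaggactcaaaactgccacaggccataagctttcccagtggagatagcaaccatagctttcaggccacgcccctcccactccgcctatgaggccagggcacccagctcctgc
COL12A1: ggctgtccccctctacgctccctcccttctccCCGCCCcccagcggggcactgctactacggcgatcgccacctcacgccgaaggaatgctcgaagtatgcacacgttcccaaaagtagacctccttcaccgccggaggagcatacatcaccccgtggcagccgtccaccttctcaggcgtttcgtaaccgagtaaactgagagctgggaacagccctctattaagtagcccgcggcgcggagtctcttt
COL16A1: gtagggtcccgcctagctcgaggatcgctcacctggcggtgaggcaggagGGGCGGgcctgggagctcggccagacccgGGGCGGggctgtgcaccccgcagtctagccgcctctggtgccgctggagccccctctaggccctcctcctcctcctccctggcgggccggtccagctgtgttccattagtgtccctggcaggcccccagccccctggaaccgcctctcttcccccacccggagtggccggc
COL13A1: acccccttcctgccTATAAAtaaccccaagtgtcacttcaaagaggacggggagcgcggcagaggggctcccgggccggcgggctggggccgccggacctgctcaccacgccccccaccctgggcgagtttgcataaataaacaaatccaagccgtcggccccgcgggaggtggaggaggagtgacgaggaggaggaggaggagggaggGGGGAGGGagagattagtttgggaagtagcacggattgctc
The rising genes COL12A1 and COL16A1 each hold GGGCGG, COL21A1 holds none of the 4 motifs, and COL13A1 alone among the 4 holds TATAAA. RefSeq promoter entries were at hand for 32 of the 44 collagen genes. Those named without an entry are COL1A1, COL1A2, COL2A1, COL3A1, COL5A2, COL6A1, COL6A5, COL8A1, COL9A3, COL14A1, COL20A1 and COL22A1.

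COL21A1 (chromosome 6 from 56056590 to 56394128) was at 7.17, 9.17, 7.79 and 6.75 TPM at Day 16, 51.9, 44.9, 35.4 and 35.1 in RPMI/B27, 27.3, 27.1, 25.7 and 16.9 in RPMI_glcM/B27 and 37.3, 27.2, 28.9 and 31.6 in HPLM/B27. No Day 30 library overlapped with Day 16, and RPMI/B27 was above RPMI_glcM/B27 without overlap. The mean rose 5.41-fold, 3.14-fold and 4.05-fold in the 3 media, with log2 differences of 2.28 ± 0.17 (adjusted p = 6.73e-07), 1.52 ± 0.17 (adjusted p = 1.69e-05) and 1.89 ± 0.17 (adjusted p = 2.13e-06). COL16A1 (chromosome 1 from 31652263 to 31704017) was at 2.98, 2.95, 3.41 and 3.34 TPM at Day 16, 10.49, 10.7, 8.004 and 6.18 in RPMI/B27, 7.08, 7.48, 6.80 and 5.74 in RPMI_glcM/B27 and 5.75, 4.35, 3.63 and 4.85 in HPLM/B27. All Day 30 libraries were above Day 16. It rose by 1.21 ± 0.16 in RPMI/B27 (adjusted p = 0.000195) and 0.90 ± 0.16 in RPMI_glcM/B27 (adjusted p = 0.00109), and its difference of 0.43 ± 0.16 in HPLM/B27 did not pass on TPM (adjusted p = 0.0662) and passed in 6 of 10 alternatives (0.000417 to 0.099), rescaling among them (adjusted p = 0.000704).

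COL12A1 (chromosome 6 from 75084326 to 75206053) was at 2.94, 2.77, 2.29 and 2.08 TPM at Day 16, 10.4, 7.16, 6.54 and 5.20 in RPMI/B27, 4.59, 5.19, 5.27 and 3.46 in RPMI_glcM/B27 and 3.98, 4.099, 4.45 and 4.52 in HPLM/B27. All Day 30 libraries were above Day 16, with replicate 1 of RPMI/B27 the highest. It rose by 1.21 ± 0.17 (adjusted p = 0.000307), 0.67 ± 0.17 (adjusted p = 0.0118) and 0.58 ± 0.17 (adjusted p = 0.0225) in the 3 media, and the last call was lost without replicate 3 or 4 of Day 16 or replicate 3 or 4 of HPLM/B27. COL9A1, a partner of type II fibrils in cartilage, ranged from 2.22 to 5.70 TPM and COL14A1 from 0.799 to 1.76 TPM over all libraries, and neither passed against Day 16 on either scale.

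COL13A1 (chromosome 10 from 69801906 to 69959144), a membrane-spanning collagen of adhesion sites and the neuromuscular junction, was at 8.40, 10.4, 8.53 and 7.76 TPM at Day 16, 3.08, 2.89, 4.00 and 2.13 in RPMI/B27, 3.35, 2.15, 1.55 and 2.30 in RPMI_glcM/B27 and 2.43, 1.93, 2.31 and 2.49 in HPLM/B27. All Day 30 libraries were below Day 16. It fell, with log2 differences of -1.29 ± 0.18 (adjusted p = 0.000209), -1.57 ± 0.18 (adjusted p = 1.82e-05) and -1.57 ± 0.18 (adjusted p = 1.98e-05) in the 3 media. COL25A1 (chromosome 4 from 108808725 to 109302658), a transmembrane collagen needed for motor innervation of muscle, was at 1.12, 2.27, 1.52 and 0.806 TPM at Day 16, 0.847, 1.12, 0.546 and 0.583 in RPMI/B27, 2.56, 2.66, 3.12 and 2.53 in RPMI_glcM/B27 and 0.884, 1.44, 1.25 and 0.871 in HPLM/B27. The 4 RPMI_glcM/B27 libraries were the highest of all 16. COL25A1 rose in RPMI_glcM/B27 (0.65 ± 0.20, adjusted p = 0.0296), a call lost without replicate 1, 3 or 4 of Day 16 or replicate 2, 3 or 4 of RPMI_glcM/B27, and its differences in RPMI/B27 and HPLM/B27 were -0.43 ± 0.20 and -0.18 ± 0.20 (adjusted p = 0.131 and 0.529). COL23A1, the third transmembrane gene tested, ranged from 1.02 to 3.74 TPM and did not pass.

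The other 18 collagen genes had means from 0 to 0.838 TPM. Of these, 7 had a mean of at least 10 reads, namely COL6A3, COL17A1, COL6A6, COL19A1, COL4A3, COL28A1 and COL4A4, and the other 11 had fewer. COL26A1 was at 0.446, 1.47, 0.461 and 0.254 TPM at Day 16 and at most 0.326 TPM at Day 30, on 0 to 21 reads per library. COL22A1 was listed at 0 in all 16 libraries, and 0 reads in a library allow up to 3 by counting error alone. COL11A2 is also listed under names of its copies on alternative haplotypes, so its near absence is uncertain. When all genes above 0 were tested, COL26A1 was lower than Day 16 in all 3 media (-0.62, -0.57 and -0.51, adjusted p = 0.0256, 0.0324 and 0.0468) and COL24A1 in RPMI/B27 and HPLM/B27 (-0.24 and -0.23, adjusted p = 0.0284 and 0.026), and limma-voom on reads tested neither, since both had a mean of under 10 reads.

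The comparison of RPMI_glcM/B27 with RPMI/B27 at Day 30 asked what the lower glucose of the same medium changed. COL1A2, COL5A2, COL11A1 and COL21A1 were lower and COL25A1 higher in 5 mM glucose, 4 and 1 of the 26 tested, where 0.837% of all genes were lower and 1.36% higher. The log2 difference was -1.24 ± 0.20 for COL1A2 (adjusted p = 0.00393), a mean of 14.6 against 36.2 TPM. It was -0.96 ± 0.14 for COL5A2 (adjusted p = 0.00163) and -0.90 ± 0.17 for COL11A1 (adjusted p = 0.0115). For COL21A1 it was -0.77 ± 0.17 (adjusted p = 0.0253), a call lost without replicate 1 or 2 of RPMI/B27 or replicate 2, 3 or 4 of RPMI_glcM/B27. For COL25A1 it was 1.08 ± 0.20 (adjusted p = 0.00948), a mean of 2.72 against 0.774 TPM. These 5 genes and COL3A1, 6 of the 26, did not overlap between the groups on TPM, beside 7% of all genes tested. After rescaling the same 5 passed with 6 more, COL1A1, COL3A1, COL5A1, COL6A2, COL8A1 and COL12A1, so that 10 were lower and 1 higher, beside 5.64% and 6.46% of all genes. The differences of these 6 were -0.77, -0.91, -0.65, -0.50, -0.51 and -0.60 after rescaling and -0.71, -0.84, -0.59, -0.43, -0.46 and -0.54 on TPM. The standard error of COL1A1 was 0.24 on TPM and 0.14 after rescaling. COL2A1 did not pass (0.05 ± 0.18, adjusted p = 0.934).

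The comparison of HPLM/B27 with RPMI/B27 changes the glucose and the rest of the medium together. COL1A2, COL5A2 and COL16A1 were lower and no collagen gene was higher, 3 and 0 of 26, where 0.893% of all genes were lower and 1.51% higher. The differences were -0.81 ± 0.20 (adjusted p = 0.0421), -0.88 ± 0.14 (adjusted p = 0.0022) and -0.79 ± 0.16 (adjusted p = 0.0167), each without overlap. In all, 6 of the 26 did not overlap on TPM, beside 7.3% of all genes tested. The COL1A2 call was lost without replicate 1 or 2 of RPMI/B27 or any library of HPLM/B27, and the COL16A1 call without replicate 2 or 3 of HPLM/B27. Without either of those HPLM/B27 libraries, 1 collagen gene passed, beside 1.27 and 1.16% of all genes tested. After rescaling 10 were lower and 0 higher, beside 5.55% and 7.43% of all genes, the added 7 being COL1A1, COL5A1, COL4A6, COL6A2, COL8A1, COL12A1 and COL18A1 (-0.64, -0.53, -0.36, -0.55, -0.58, -0.62 and -0.20). Both Day 30 comparisons share the RPMI/B27 libraries. When only the 2 groups compared were in the fit, 1 collagen gene passed between RPMI_glcM/B27 and RPMI/B27 and 0 between HPLM/B27 and RPMI/B27. Of all genes 0.279 and 0.502% passed in these fits.

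The comparison of HPLM/B27 with RPMI_glcM/B27 holds glucose alike and asks what the rest of the medium changed. On TPM 0 of the 26 collagen genes passed in limma, where 0.0496% of all genes were higher and 0.0186% lower. An unadjusted p under 0.05 was met by 8 of the 26, beside 1053 of all 16122 genes tested. After rescaling COL25A1 alone passed, lower in HPLM/B27, with a log2 difference of -0.79 ± 0.14 (adjusted p = 0.0129, with 0.00169 to 0.247 over the alternatives), where 0.992% of all genes were higher and 0.602% lower, and limma-voom on reads also gave 1 lower gene. COL11A1, COL23A1, COL25A1 and COL7A1, 4 of the 26, did not overlap between the groups on TPM, beside 7.28% of all genes tested. COL11A1 was higher in HPLM/B27 by 0.53 ± 0.17 (adjusted p = 0.45) and COL25A1 lower, with a log2 difference of -0.82 ± 0.20 (adjusted p = 0.169), neither past the threshold. COL3A1 and COL1A2 had differences of 0.49 ± 0.24 and 0.43 ± 0.20 (adjusted p = 0.797 and 0.76), and HPLM/B27 replicate 3 held the highest level of COL3A1, COL1A1, COL1A2 and COL11A1 in its group.

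**Figure D4:**
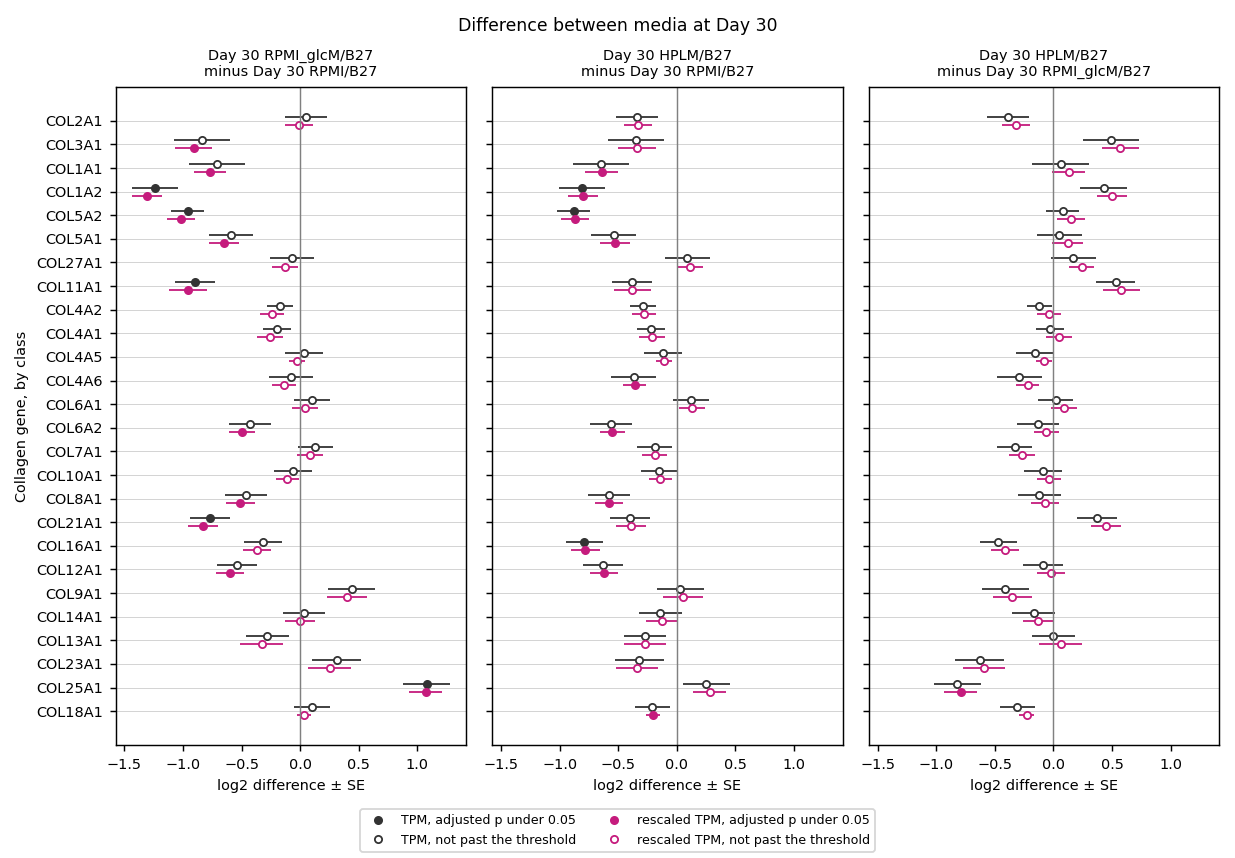
Difference of each collagen gene between the Day 30 media on the log2 scale, with its standard error, on TPM (dark) and after rescaling (magenta). Filled points passed an adjusted p of 0.05. In the left and middle panels most fibril-forming genes lie left of 0, with COL1A2 at -1.24 and -0.81 on TPM, COL25A1 lies at 1.08 in the left panel, and the right panel holds 1 filled point, COL25A1 after rescaling.

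The ratio between chains of one collagen does not depend on the scale of a library. COL1A1 to COL1A2 was 0.995 to 1.12 at Day 16, 0.991 to 1.29 in RPMI/B27, 1.62 to 1.72 in RPMI_glcM/B27 and 1.19 to 1.32 in HPLM/B27. The 4 RPMI_glcM/B27 libraries, at 1.63, 1.72, 1.62 and 1.63, were above all the others, and HPLM/B27 was above Day 16 without overlap. COL6A1 to COL6A2 was 1.58 to 1.93 at Day 16, 1.23 to 1.70 in RPMI/B27, 1.82 to 2.27 in RPMI_glcM/B27 and 2.11 to 2.70 in HPLM/B27, so that the RPMI/B27 libraries lay below both other media of the same day. COL4A2 to COL4A1 was 2.27 to 2.54 at Day 16 and 2.36 to 2.96 at Day 30. In reads the chains were closer, at 0.939 to 1.23 reads of COL4A2 for each of COL4A1, because the deposited TPM rest on a gene length for COL4A1 that is 2.41 times that for COL4A2. COL4A5 to COL4A6 was 1.25 to 1.86 over all libraries and COL5A2 to COL5A1 0.997 to 2.45, with overlapping groups. COL8A2 was at or below 0.291 TPM in every library, so its ratio to COL8A1 was not read. These ratios were not tested.

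**Figure D5:**
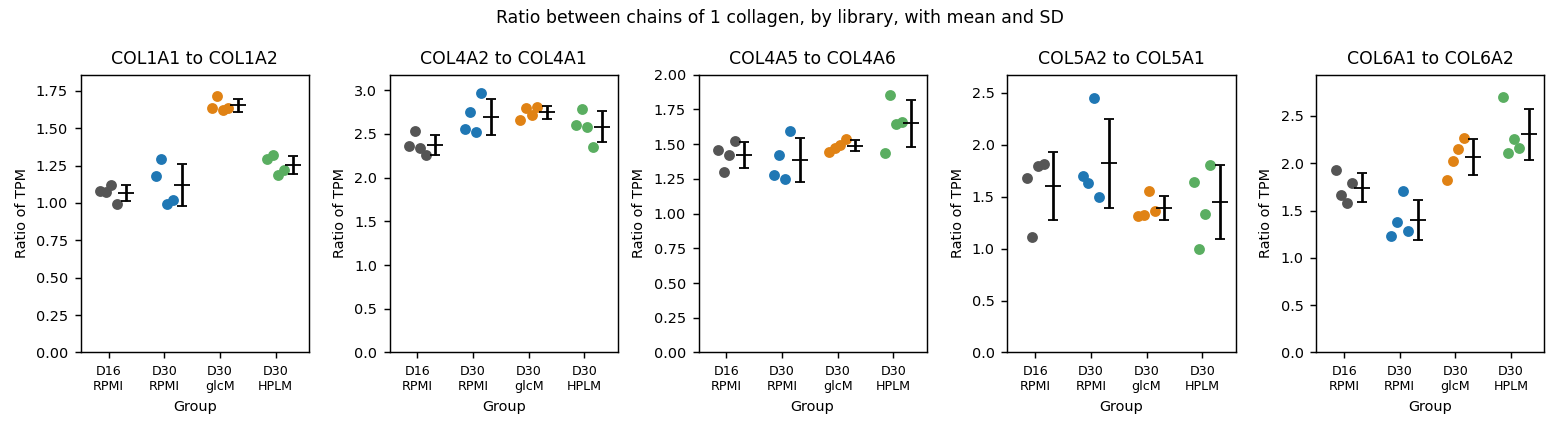
Ratio of the TPM of chains that assemble into one collagen, in each library (points, replicates 1 to 4 from left to right within a group) with the group mean and SD beside them, on linear axes that start at 0. COL1A1 to COL1A2 is highest and tightest in RPMI_glcM/B27 (1.62 to 1.72), and COL6A1 to COL6A2 is lowest in RPMI/B27 (1.23 to 1.70).

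Most of the genes tested that modify collagen chains fell on TPM. Of 14 tested for prolyl and lysyl modification, 9 fell in RPMI/B27, 9 fell and 1 rose in RPMI_glcM/B27, and 10 fell in HPLM/B27. After rescaling 5, 7 and 4 fell, with 2 higher in each of the last 2 media. Beside this and every list below, 17.8, 17.8 and 22.4% of all genes tested fell on TPM in the 3 media and 2.08, 3.34 and 3% rose. After rescaling 8.76, 13.6 and 11.9% of all genes fell and 8.76, 14 and 13.4% rose. COLGALT2, which adds galactose to hydroxylysine, fell, with log2 differences of -1.24 ± 0.21, -1.49 ± 0.21 and -1.85 ± 0.21 in the 3 media (adjusted p = 0.00116, 0.000157 and 2.34e-05). P3H2, a prolyl 3-hydroxylase, was at 35.1 TPM at Day 16 and 22.0, 12.7 and 17.7 TPM in the 3 media, and fell in each on TPM (adjusted p = 0.0156, 3.78e-05 and 0.0011). P4HA1, the catalytic chain of prolyl 4-hydroxylase, fell, with log2 differences of -0.84, -0.58 and -0.69 (adjusted p = 0.00384, 0.0255 and 0.00924), of which the last 2 were not called after rescaling. PLOD2, the lysyl hydroxylase of the telopeptides, had differences of -0.22, 0.06 and 0.12 on TPM, none of them called, and was higher after rescaling in RPMI_glcM/B27 (0.33) and HPLM/B27 (0.47). Between the Day 30 media, P4HA2 was higher (0.66 ± 0.14, adjusted p = 0.0228) and P3H2 lower (-0.76 ± 0.17, adjusted p = 0.0307) in RPMI_glcM/B27 than in RPMI/B27.

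Of 12 folding and export genes, 6, 5 and 6 fell on TPM in the 3 media and 0 rose, and 4, 5 and 5 fell and 0, 1 and 1 rose after rescaling. SERPINH1, the collagen chaperone HSP47, was at 116, 88.0, 128 and 109.5 TPM at Day 16, 79.4, 69.4, 66.4 and 53.5 in RPMI/B27, 71.3, 70.1, 72.2 and 55.4 in RPMI_glcM/B27 and 48.9, 50.04, 49.3 and 50.98 in HPLM/B27, where it was lowest. It fell, with log2 differences of -0.71 ± 0.14, -0.70 ± 0.14 and -1.12 ± 0.14 (adjusted p = 0.00239, 0.00164 and 3.47e-05), and after rescaling the call in RPMI/B27 was lost. FKBP10, a prolyl isomerase for procollagen, fell, with log2 differences of -0.90, -0.99 and -0.85, and CREB3L1, a transcription factor for type I collagen in bone, fell with differences of -0.85, -1.28 and -0.72, on both scales. Of 4 procollagen cleavage genes tested, BMP1, the C-proteinase, fell in RPMI/B27 and RPMI_glcM/B27 (-0.59 and -0.60, adjusted p = 0.0307 and 0.025) and the former was not called after rescaling. After rescaling 1 of the 4 rose in RPMI_glcM/B27. Of 6 cross-linking genes, 2 fell in each medium on TPM and 1 after rescaling, while 0 rose on TPM and 1, 1 and 0 after rescaling. LOXL1 fell in all 3 (-1.11, -1.68 and -1.48), while LOX, the lysyl oxidase, was called lower on TPM in RPMI/B27 (-0.83, adjusted p = 0.0394) and not in the other media (-0.70 and -0.75, adjusted p = 0.0757 and 0.0516), and after rescaling in none.

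Among matrix proteins that bind collagen, 6 of 11 tested fell in each medium on both scales, while 0 rose on TPM and 2, 2 and 0 after rescaling. Fibronectin, FN1, fell from 399 ± 76.5 TPM at Day 16 to 110.4 ± 34.7, 70.4 ± 8.68 and 104 ± 9.93 TPM (SD, n = 4), and SPARC, a collagen chaperone of the matrix, from 151 ± 32.4 to 80.8 ± 24.4, 42.2 ± 4.75 and 44.8 ± 1.59 TPM. FBN2 and NID2, which build microfibrils and basement membranes, also fell (-1.24, -1.30 and -1.65 for FBN2 and -1.04, -0.77 and -1.04 for NID2). SPARC was the matrix partner that differed between the Day 30 media on TPM, lower than in RPMI/B27, with log2 differences of -0.88 ± 0.19 in RPMI_glcM/B27 (adjusted p = 0.0209) and -0.79 ± 0.19 in HPLM/B27 (adjusted p = 0.035). Of 7 collagen receptors tested, 1, 3 and 1 fell on TPM and 0, 3 and 1 after rescaling, while 0, 1 and 0 rose on TPM and 0, 1 and 1 after it. In RPMI/B27 and HPLM/B27 the receptors that fell on TPM did not exceed the share of all genes, 17.8 and 22.4%. MRC2, which takes up collagen fragments, fell in all 3 media on TPM (-0.72, -1.28 and -1.52) and in the last 2 after rescaling, the integrin chains ITGA1 and ITGB1 fell in RPMI_glcM/B27 (-0.88 and -0.47), and ITGA10 rose there (0.75 ± 0.18, adjusted p = 0.00852). Of 9 degradation genes tested, 1, 3 and 4 fell on TPM and 1, 3 and 2 after rescaling, while 0, 2 and 0 rose on TPM and 2, 2 and 1 after it. In RPMI/B27 those that fell on TPM did not exceed the share of all genes, 17.8%. The gelatinase MMP2 fell in all 3 media (-1.27, -1.90 and -1.83) and MMP14 in RPMI_glcM/B27 and HPLM/B27 (-1.55 and -1.15). MMP16 and TIMP2 rose in RPMI_glcM/B27 (0.69 and 0.62) and were also higher there than in RPMI/B27 (0.82 and 0.75, adjusted p = 0.0325 and 0.0324), where MMP14 was lower (-1.10, adjusted p = 0.0135).

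Of 17 regulators tested, 7, 9 and 11 fell in the 3 media on TPM and 3, 8 and 9 after rescaling, while 0 rose on TPM and 0, 2 and 2 after rescaling. TGFB2, the TGF-beta ligand with the highest level, was at 253, 263, 258 and 214 TPM at Day 16, 138, 138, 101.4 and 84.3 in RPMI/B27, 115, 109, 97.6 and 76.5 in RPMI_glcM/B27 and 81.3, 78.2, 74.4 and 80.2 in HPLM/B27, and fell in all 3 media (-1.11 ± 0.16, -1.32 ± 0.16 and -1.64 ± 0.16, adjusted p = 0.000266, 3.01e-05 and 4.1e-06). TGFB1 was lowest in RPMI_glcM/B27, at 13.0 to 17.4 TPM against 27.8 to 42.7 at Day 16, 20.03 to 31.4 in RPMI/B27 and 16.2 to 24.7 in HPLM/B27, and its difference from RPMI/B27 was -0.74 ± 0.17 (adjusted p = 0.0288). TGFB3 fell on TPM, with log2 differences of -0.72, -0.97 and -1.26 (adjusted p = 0.0245, 0.00348 and 0.000507). CCN2, a target of TGF-beta and stretch, fell, with log2 differences of -1.28, -1.76 and -1.64, and SOX9, which drives COL2A1 in cartilage, fell with differences of -0.80, -1.24 and -0.76. SOX9 was at 3.302 to 6.15 TPM at Day 16 and 0.880 to 3.68 TPM at Day 30. After rescaling CCN2 and TGFB3 were not called in RPMI/B27, and SOX9 was called in RPMI_glcM/B27 and not in the other media.

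Markers of cells other than cardiomyocytes are given because bulk RNA holds all cells of a well. Against Day 16, 17.8, 17.8 and 22.4% of all genes tested fell on TPM in the 3 media and 8.76, 13.6 and 11.9% after rescaling. Of 10 fibroblast markers, 6 were tested, and 2, 3 and 3 fell in the 3 media on both scales, while 0 rose on TPM and 1, 1 and 0 after rescaling. Their summed level was 89.4 to 164 TPM at Day 16 and 49.9 to 122 TPM at Day 30. It rested on PDGFRA, at 45.3 to 89.5 TPM at Day 16 and 25.6 to 54.9, 18.7 to 25.6 and 21.5 to 29.5 TPM in the 3 media, and on POSTN, at 21.6 to 58.7 TPM over all libraries. The defining markers DCN, TCF21, DPT and THY1 did not exceed 1.25 TPM in any library, while LUM, which fell in all 3 media on both scales, ranged from 0.204 to 11.6, FBLN1 from 0.838 to 9.87 and OGN from 1.01 to 3.00 TPM. Of these markers DCN, LUM and POSTN stand also among the matrix partners and DDR2 among the receptors. Of 6 smooth muscle markers 4 were tested, of which 2, 3 and 3 fell on TPM and 0, 1 and 1 after rescaling. Among them MYH11 was listed at 0 in all 16, and the summed level was 395 to 855 TPM at Day 16 and 244 to 950 TPM at Day 30, mainly from ACTA2, TAGLN and CNN1, which young cardiomyocytes also express. Of 6 endothelial markers, PECAM1, CDH5, VWF and CLDN5 did not exceed 1.17 TPM, and the summed level was 42.3 to 54.5 TPM at Day 16 and 13.3 to 30.9 TPM at Day 30, nearly all of it KDR, the 1 marker tested, which fell in all 3 media on both scales. The 6 epicardial markers summed to 11.7 to 16.1 TPM at Day 16, and at Day 30 to 11.6 to 29.0 TPM in RPMI/B27, 13.3 to 17.7 in RPMI_glcM/B27 and 7.44 to 8.38 in HPLM/B27. TBX18, the 1 tested, was higher than Day 16 in RPMI/B27 (0.60, adjusted p = 0.0468) and lower in HPLM/B27 (-0.70, adjusted p = 0.0206) on both scales, and in RPMI_glcM/B27 it was higher after rescaling (0.44) and did not pass on TPM. The 8 hepatic endoderm markers, led by AFP, summed to 453 to 810 TPM at Day 16, 323 to 569 in RPMI/B27, 93.4 to 214 in RPMI_glcM/B27 and 69.5 to 209 in HPLM/B27, and 6, 7 and 7 of the 8 fell on TPM. After rescaling 5, 7 and 7 fell, and on both scales 1 rose in each medium. Of the 8, 5 and 6 were lower than in RPMI/B27 in the last 2 media on TPM, beside 0.837 and 0.893% of all genes tested. The part of these cells in the collagen levels was not tested.

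The genes whose pattern over the 16 libraries was most like that of COL2A1, by Pearson's r of log2(TPM + 1), were MYH10 (0.982), CRB2 (0.979), IGDCC3 (0.973), LRP2 (0.973) and LYPD6 (0.973). The mean level of MYH10, a nonmuscle myosin, went from 157 TPM at Day 16 to 61.7 to 72.2 TPM at Day 30. Those most like COL21A1 were NRAP (0.983), LOC653513 (0.969), PRRX1 (0.964), TCAP (0.962) and JAK2 (0.952). NRAP, a protein of the growing myofibril, had a mean of 0.513 TPM at Day 16 and of 9.20, 3.87 and 6.18 TPM in the 3 media, and so was highest in RPMI/B27 and lowest in RPMI_glcM/B27 among the Day 30 media, as COL21A1 was. TCAP caps titin at the Z-disc. After rescaling CRB2 and IGDCC3 stayed among the 5 most like COL2A1, and NRAP, TCAP and PRRX1 among the 5 most like COL21A1. The libraries of a group share their condition, so these values describe the pattern between 4 groups more than 16 separate points.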

How the data were processed

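RNA of 16 wells of WTC11-derived hPSC-CMs was made into libraries with a Takara kit for stranded total RNA (SMARTer) and sequenced on a NovaSeq. The authors aligned reads with STAR 2.5.3a to hg38, counted them on genes with featureCounts 2.0.3 and deposited 1 table of TPM. The gene annotation, the gene lengths, the strand setting and the tool behind the TPM are not given in the sources used here. Because TPM are relative, a shift in abundant RNA such as RNR1 moves every other gene.

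Genes averaging 1 TPM or more were tested on log2(TPM + 1) with limma 3.58.1 (R 4.3.3, trended variance) in 1 fit of all 4 groups, with 6 two-sided comparisons, each adjusted by Benjamini-Hochberg over the 16122 genes. Spread is SD over 4 wells and error of a difference its SE. Whole reads per gene were recovered from the ratios of TPM for use in limma-voom. Alternatives were a pseudocount of 0.1 TPM, all genes above 0, a minimum of 5 TPM, median-of-ratios scaling, leaving out mitochondrial, ribosomal and 7SK and 7SL RNA, only the groups compared, a replicate block, RNR1 as a covariate, limma-voom, and each library left out. Scripts were tested on simulated data. Nothing was drawn from the authors' own comparisons.

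Collagen genes past the threshold in any comparison or among the 6 highest are given in every library, the others by range. Of the pathway and marker lists, genes named are at most the 4 of smallest adjusted p per list and comparison, with SOX9, TGFB1, TGFB2, TGFB3, CCN2, SERPINH1, P4HA1, LOX and PLOD2. The collagen genes and the lists were chosen with earlier results of these data known. Counting intervals were not computed, and levels rest on reads without molecular identifiers. Promoter windows and positions are from RefSeq, GRCh38.p14.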

Additional observations from a re-analysis of the deposited data

Results flagged for a closer look

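In 5 of the 104 groups of 4 libraries tested, 1 library stood apart from the other 3 by Dixon's criterion, which chance meets in about 1 of 20 groups. COL4A1 was at 56.9 TPM in replicate 4 of Day 30 RPMI/B27 against 77.05 to 80.5 TPM in the others, and at 78.3 after rescaling, the library being the one with the highest RNR1. COL5A2 was at 13.0 TPM in replicate 4 of RPMI_glcM/B27 against 17.0 to 17.8 TPM. COL21A1 was at 16.9 TPM in the same library against 25.7 to 27.3 TPM. COL27A1 was at 9.22 TPM in replicate 2 of Day 16 against 4.78 to 5.39 TPM, and COL10A1 at 2.36 TPM in replicate 1 of HPLM/B27 against 3.15 to 3.22 TPM.

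The change from Day 16 differed between media for 8 pairs of gene and comparison, in which the Day 16 libraries cancel, so the test is that between the Day 30 media (limma, adjusted over all genes tested). Between RPMI_glcM/B27 and RPMI/B27 the log2 difference was -1.24 for COL1A2, -0.96 for COL5A2, -0.77 for COL21A1, -0.90 for COL11A1 and 1.08 for COL25A1. The adjusted p-values were 0.00393, 0.00163, 0.0253, 0.0115 and 0.00948. Between HPLM/B27 and RPMI/B27 the difference was -0.81 for COL1A2, -0.88 for COL5A2 and -0.79 for COL16A1, with adjusted p-values of 0.0421, 0.0022 and 0.0167.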

How the results depend on the processing

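The counts of collagen genes called were 10, 17 and 15 against Day 16 in the 3 media, 5 for RPMI_glcM/B27 and 3 for HPLM/B27 against RPMI/B27, and 0 for HPLM/B27 against RPMI_glcM/B27. In the same order 19.9, 21.1, 25.4, 2.2, 2.41 and 0.0682% of all genes tested were called. The last 3 counts of collagen genes were 11, 10 and 1 with median-of-ratios scaling, 10, 10 and 1 with RNR1 as a covariate, 12, 9 and 1 without mitochondrial, ribosomal, 7SK and 7SL RNA, 11, 11 and 1 with limma-voom on recovered reads, and 13, 13 and 1 with median-of-ratios library sizes added, a setting chosen after seeing the data. The share of all genes called rose as well in these settings. It was 12.1, 13 and 1.59% with median-of-ratios scaling, 4.51, 6.85 and 0.564% with RNR1 as a covariate, and 9.35, 10.3 and 1.02% without those RNAs. With limma-voom it was 7.88, 10.1 and 0.895%, and 12.9, 16.1 and 1.74% with the library sizes added. With only the groups compared in the fit, RPMI/B27 had 6 calls against Day 16, RPMI_glcM/B27 had 1 against RPMI/B27 and HPLM/B27 had 0. Of all genes 6.19, 0.279 and 0.502% were called there. With a mean of at least 5 TPM the counts were 11 for RPMI_glcM/B27 against Day 16 and 3 against RPMI/B27, over fewer genes tested, beside 23.5 and 3.12% of all genes. With a replicate block the counts for RPMI_glcM/B27 and HPLM/B27 against RPMI/B27 were 8 and 6, beside 4.47 and 4.54% of all genes. Same-numbered wells share only a number: 6 of 24 same-numbered pairs deviated together with a correlation over 0.1, and the range was -0.07 to 0.21. Leaving out 1 library gave 7 to 15, 16 to 17 and 14 to 17 calls against Day 16, and 4 to 6, 1 to 4 and 0 to 0 between the media, with 1 for HPLM/B27 against RPMI/B27 without replicate 2 or 3 of HPLM/B27. The share of all genes then ran from 10.9 to 31.1, 14.4 to 20.7 and 17.5 to 25.6% against Day 16. Between the media it ran from 0.887 to 2.74, 1.16 to 3.22 and 0.0062 to 0.031%. Of the 50 called pairs of gene and comparison, 44 stayed called with median-of-ratios scaling and 19 were added, and none of the 50 turned direction under any of these settings. The summed collagen TPM at Day 16 had a mean of 1160, or 964 after rescaling. At Day 30 the means were 851.5, 705.5 and 664.9 in the 3 media, or 892.5, 711.2 and 711.4 after rescaling. ACTN2, lower in HPLM/B27 than at Day 16 on TPM, changed sign to a log2 difference of 0.0158 with median-of-ratios scaling (limma, adjusted p = 0.941). With limma-voom on those library sizes it was 0.00825 (adjusted p = 0.963). Neither of these passed, so ACTN2 was not called higher. The causes were not tested. The design holds 1 line, 1 differentiation and 4 wells a group.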
